A study of Mus musculus with 12 samples.

Results

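A run of 9 neighbouring genes of mouse chromosome 12 was examined in IgG control libraries, namely Gpatch2l, Esrrb, Vash1, Angel1, Lrrc74a, Cipc, Zdhhc22, Tmem63c and Ngb. They were chosen by the density of control reads, which was high from Esrrb to Tmem63c, with Gpatch2l and Ngb taken as the flanks on either side. They are 9 of the 23870 named genes in the libraries, and 14 of the 33062 transcript intervals, with 12 different spans. Their densities are therefore given below as a description, with no test. The comparison of treatments did not enter the choice.

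The study used mpkCCD cells (clone 11), a line of transformed mouse renal principal cells from the collecting duct, and asked how vasopressin regulates transcription in them. All groups were grown on permeable supports and harvested 24 h after removal of 2% dialyzed serum, with either 0.1 nM dDAVP, an agonist of the V2 vasopressin receptor, or its vehicle present throughout. Chromatin was precipitated with an IgG antibody, the background control, or through Polr2a, which is the largest subunit of RNA polymerase II, in 3 experiments per treatment. The 6 IgG libraries are described here, and the 6 others were not analysed here. The cells are 1 cloned line, and separate cultures for the experiments are not stated in the labels, so a p-value measures only how far these samples spread, which may be technical. The libraries hold genomic DNA, so the labelled cell type cannot be checked against marker genes.

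An IgG antibody has no target on chromatin. Its reads sample the sheared genome, and their density is known to follow the amount of DNA present, its base composition, the ease with which reads can be placed and the openness of the chromatin. Such controls are made so that these can be set against a precipitation that has a target.

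The genes have varied known roles. Esrrb is an orphan nuclear receptor known as a factor of pluripotent stem cells, and Vash1, vasohibin 1, removes the last tyrosine of alpha-tubulin and restrains blood vessel growth. Angel1 belongs to a family related to the CCR4 deadenylase, Lrrc74a is a protein of leucine-rich repeats, and Cipc binds CLOCK and represses the circadian clock. Zdhhc22 belongs to the DHHC family of palmitoyltransferases, and Tmem63c to a family of membrane proteins that includes cation channels opened by membrane stretch. Of the flanks, Ngb is neuroglobin, an oxygen-binding globin of neurons, and Gpatch2l is a protein with a G-patch domain.

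The start windows of 3 transcripts are shown because the results name these places, and no density result uses their sequence. Each spans 300 bases around the transcript's first base, from RefSeq on GRCm38.p6, which has the coordinates of mm10, on the plus strand. The starts of Esrrb bound the piece whose mean density was low and the part whose mean density was high, and Vash1 is the dense member whose density varied most between libraries. CG dinucleotides are in capitals. The outer Esrrb start is chr12:86360867-86361166, the inner start is chr12:86421394-86421693 and the Vash1 start is chr12:86678450-86678749.
Esrrb outer start: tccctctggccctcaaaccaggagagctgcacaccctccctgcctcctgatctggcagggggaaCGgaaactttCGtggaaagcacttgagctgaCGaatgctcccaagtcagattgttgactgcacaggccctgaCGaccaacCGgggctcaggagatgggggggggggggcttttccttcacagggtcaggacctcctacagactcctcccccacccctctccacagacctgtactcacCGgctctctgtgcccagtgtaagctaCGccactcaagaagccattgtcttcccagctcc
Esrrb inner start: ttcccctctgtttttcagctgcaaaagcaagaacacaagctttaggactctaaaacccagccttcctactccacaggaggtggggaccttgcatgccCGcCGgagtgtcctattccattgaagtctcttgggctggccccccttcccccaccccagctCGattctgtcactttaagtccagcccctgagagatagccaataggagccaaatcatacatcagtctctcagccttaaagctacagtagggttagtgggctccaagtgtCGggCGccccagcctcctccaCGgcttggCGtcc
Vash1 start: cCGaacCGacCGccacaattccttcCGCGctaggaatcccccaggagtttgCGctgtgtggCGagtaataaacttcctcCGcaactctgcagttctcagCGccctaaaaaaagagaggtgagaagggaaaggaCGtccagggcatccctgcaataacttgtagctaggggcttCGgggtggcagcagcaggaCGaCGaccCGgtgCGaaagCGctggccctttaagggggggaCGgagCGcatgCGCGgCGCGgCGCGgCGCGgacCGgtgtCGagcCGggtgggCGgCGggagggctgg
The motif searched was CG, which reads the same on both strands. The outer and the inner start of Esrrb held 7 CG each, the median over 32851 promoter windows of the same length in the RefSeq table, of which 94.6% held at least 1. The Vash1 window held 31 CG and was 64.3% G or C, against 60% at the outer and 55.3% at the inner start of Esrrb. Windows were listed for 7 of the 9 genes.

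Reads were counted by the authors over each RefSeq transcript interval on mm10 from its first to its last base, introns included. Values by library are given in the order of experiments 1, 2 and 3. Summed over all intervals, the counts were 13403860, 12771289 and 12632322 in the dDAVP libraries and 11185306, 10588927 and 19748658 in the vehicle libraries. A read under several transcripts is counted in each of them, so these sums exceed the number of reads. Over 1 interval per gene the counts were 8697128, 8286416 and 8260609 for dDAVP and 7262115, 6874276 and 12835455 for vehicle. Experiments 1 and 2 of each treatment differed by little more than the sampling noise. Chi-square over degrees of freedom across genes was 1.02 for dDAVP (p = 0.0375, chi-square test) and 1.01 for vehicle (p = 0.150), against 5.02 to 89.1 for the other pairs of the same treatment. Each pair lay under a limit of 1.1 and was counted as 1 sample, so n is 2 per treatment. Libraries leaned differently on base composition. The median density of the 10% of genes richest in G and C was 0.839, 0.840 and 8.28 times that of the poorest 10% in the dDAVP libraries, and 0.712, 0.715 and 0.473 times in the vehicle libraries. The dDAVP experiment 3 library therefore stands apart, and values that rest on it are given with and without it.

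In each library, density is the reads of an interval per kb over the same value of the library's median gene. Where treatments are said not to overlap, this describes the 6 libraries, with n = 2 per treatment. The share of all genes without overlap was not counted, so non-overlap is not read as a treatment difference. Esrrb, Vash1, Angel1, Lrrc74a, Cipc and Zdhhc22 stood at 9.20 times the median gene or more in every library, while the flanks stood at 1.11 to 1.66 times, except Ngb at 4.30 times in dDAVP experiment 3. The median of the 7 genes from Esrrb to Tmem63c was 15.7 ± 4.31 times the median gene (SD, n = 4 samples of both treatments). Measured per gene, 6 of the 9 members stood at 5 times the median gene or more in every library, a level called dense here, against a background of 0.0838%, or 20 of 23870 genes. Since density chose the members, nothing is read from that count. Of the 20 dense genes, 12 lay among the 813 genes of chromosome 12. The lowest library value just inside the level was 5.35 times, for Ugt1a1, and among the genes of the stretch Irf2bpl at 4.28 times and Tmem63c at 3.77 times lay just outside it.

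**Figure D1:**
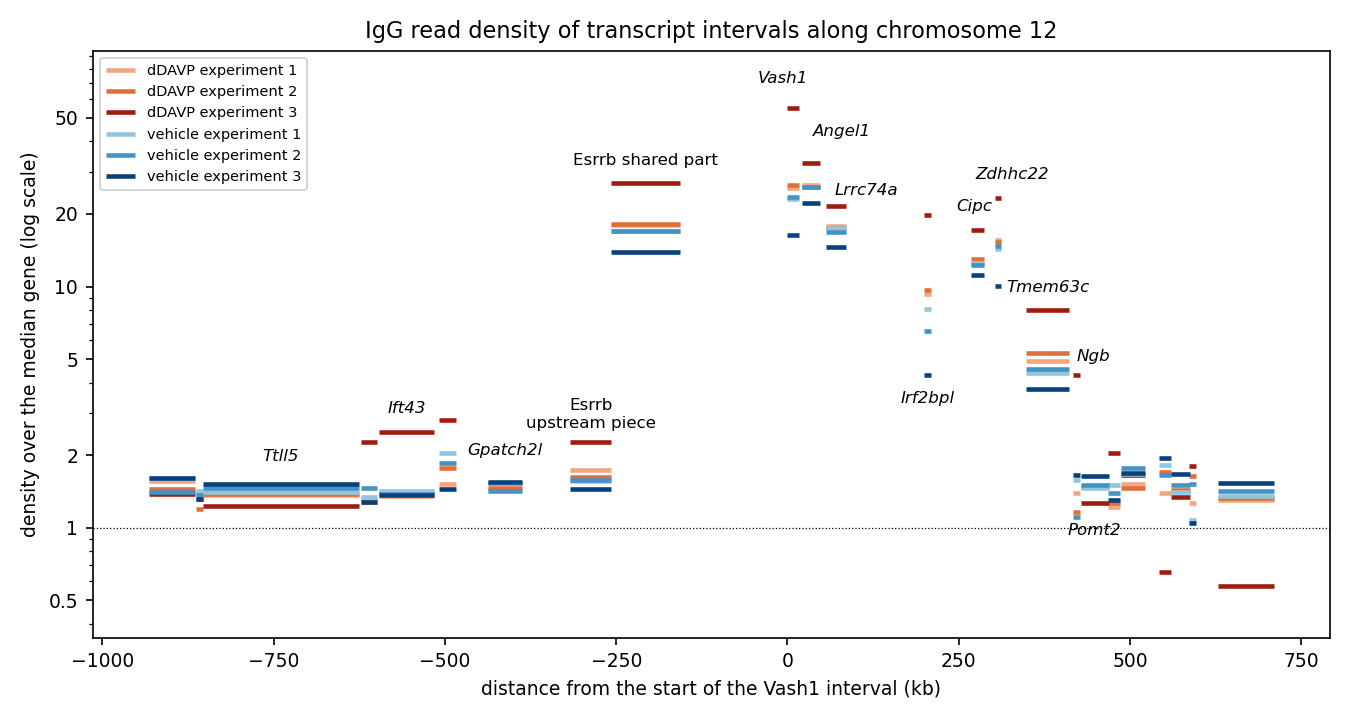
Density of IgG reads over the median gene (log scale) for transcript intervals around the stretch, against distance in kb from the start of Vash1; each bar spans an interval and each colour is a library. The upstream piece of Esrrb sits at 1.45 to 2.26 times, the shared part at 13.9 to 26.8 times, and levels return to 1.11 to 4.30 times at Ngb.

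Gpatch2l, the proximal flank, spans 49.5 kb at chr12:86241878-86291368. It held 561, 545 and 712 reads in the dDAVP libraries and 487, 429 and 809 in the vehicle libraries. Its density was 1.44, 1.46 and 1.54 times the median gene in the dDAVP libraries and 1.53, 1.42 and 1.55 times in the vehicle libraries. The libraries differed little and the treatments overlapped. Its reads covered 55.5% of its bases in the deepest library, vehicle experiment 3, where an even spread of as many reads would cover 55.8%. In the other 5 libraries they covered 26.8% to 41.1%, where an even spread gives 35.2% to 51.3%.

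Esrrb has 2 annotated transcripts that share their last base. The longer, of 160.5 kb, runs chr12:86361117-86521628, and the shorter starts inside it at 86421644. Subtracting the reads of the shorter interval from those of the longer gives the density of the 60.5 kb upstream of the inner start. A read across the border counts in both intervals and is lost from the difference. This upstream piece held 833, 736 and 1279 reads in the dDAVP libraries and 608, 584 and 928 in the vehicle libraries.

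The upstream piece of Esrrb stood at 1.74, 1.62 and 2.26 times the median gene in the dDAVP libraries and at 1.56, 1.58 and 1.45 times in the vehicle libraries. The shared part stood at 18.1, 18.2 and 26.8 times in the dDAVP libraries and at 17.0, 17.0 and 13.9 times in the vehicle libraries. In every library the upstream piece was near the flank and the shared part far above it, with dDAVP experiment 3 highest in both. The shared part was 10.8 ± 0.94 times as dense as the upstream piece (SD, n = 4 samples), with a range of 9.57 to 11.9 over the 6 libraries. The upstream piece was 1.16 ± 0.23 times as dense as Gpatch2l (SD, n = 4), with a range of 0.938 to 1.47.

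Base composition of the Esrrb pieces differed little, with 48.4% G or C upstream of the inner start and 49.1% in the shared part. Over the density of genes of equal GC content, the shared part stood at 18.5, 18.8 and 16.3 times in the dDAVP libraries and at 17.8, 17.6 and 15.8 times in the vehicle libraries. The upstream piece stood at 1.49 to 1.77 times on that scale. Corrected for GC content, the shared part was 10.7 times as dense as the upstream piece (mean, n = 4). Bases masked as repeats made up 21.3% of the upstream piece and 23.9% of the shared part.

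The deposited bases covered add another measure of the shared part. In the shared part of Esrrb, 5.76% to 9.83% of bases held no read in the 5 libraries other than dDAVP experiment 3, although an even spread at its density would leave under 1% bare. If each base stood either at the level of the upstream piece or at that of Vash1, Angel1 or Lrrc74a, the bare bases would place 6.15 to 13.6 kb of the shared part at the low level in those 5 libraries. In dDAVP experiment 3 the same arithmetic gave −16.1 to 28.4 kb, which places nothing. These lengths rest on the bare bases alone. By reads, the shared part stood at 18.1 times the median gene in dDAVP experiment 1, above Lrrc74a at 17.9 and below Angel1 at 26.3. The same model on reads would thus depend on which gene is taken as the high level. Neither the length at the low level nor its place is settled.

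Beyond Esrrb, 157.1 kb held no named interval, and the next genes lay close together. Vash1 spans 17.0 kb at chr12:86678700-86695681, with 7 exons. It held 3438, 3357 and 8726 reads in the dDAVP libraries and 2526, 2449 and 2939 in the vehicle libraries. Its density was 25.6, 26.3 and 55.0 times the median gene in the dDAVP libraries and 23.1, 23.6 and 16.4 times in the vehicle libraries. dDAVP experiment 3 stood far above the rest, and the treatments did not overlap. Vash1 is 53.5% G or C, and over genes of equal GC content it stood at 29.2, 29.8 and 24.5 times in the dDAVP libraries and at 27.5, 28.2 and 23.5 times in the vehicle libraries. On that scale dDAVP experiment 3 lay below the other dDAVP libraries, and the treatments overlapped.

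Angel1, on the minus strand, spans 26.0 kb at chr12:86700502-86726460, 4.82 kb beyond Vash1. Its density was 26.3, 26.0 and 32.4 times the median gene in the dDAVP libraries and 25.8, 25.8 and 22.2 times in the vehicle libraries. The treatments did not overlap, but the highest vehicle library lay within the counting interval of both lower dDAVP libraries. Over genes of equal GC content Angel1 stood at 25.8, 25.7 and 26.4 times in the dDAVP libraries and at 25.4, 25.3 and 22.5 times in the vehicle libraries. On that scale too the treatments did not overlap. Reads covered 99.3% to 99.9% of Angel1 in the 5 libraries other than dDAVP experiment 3, where they covered 78.3%. The density of Vash1 over that of Angel1 ran from 0.737 to 1.01 in those 5 libraries and was 1.70 in dDAVP experiment 3, so the order of the pair was not fixed.

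Lrrc74a spans 29.4 kb at chr12:86734369-86763795, a further 7.91 kb on. It stood at 17.9, 17.4 and 21.5 times the median gene in the dDAVP libraries and at 17.5, 16.8 and 14.6 times in the vehicle libraries. Within each of the 6 libraries it lay below Angel1, and the treatments overlapped. The density of Angel1 over that of Lrrc74a was 1.47 to 1.54 in the 6 libraries, with an SD of 0.017 (n = 4). Their ratio thus varied little between libraries. The pair are 46.7% and 47.3% G or C, and whether composition bears on the ratio was not tested.

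Between Lrrc74a and Cipc lies Irf2bpl, a gene with 1 exon that was not among the members, at chr12:86880703-86884814. This short gene encodes a relative of a protein that binds interferon regulatory factor 2. It stood at 9.33, 9.70 and 19.9 times the median gene in the dDAVP libraries and at 8.09, 6.57 and 4.28 times in the vehicle libraries. It is 60.1% G or C, the highest of the stretch, and over genes of equal GC content it stood at up to 12.4 times, and at 8.22 times in dDAVP experiment 3. Its reads numbered 165 to 764.

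Cipc spans 18.3 kb at chr12:86947041-86965366, with 5 annotated transcripts of 3 different spans. It stood at 12.4, 13.0 and 17.2 times the median gene in the dDAVP libraries and at 12.6, 12.3 and 11.2 times in the vehicle libraries. The treatments overlapped. Cipc is 45.7% G or C. Over genes of equal GC content it stood at 15.4 times in dDAVP experiment 3, the highest, and at 10.6 to 12.4 times in the others. The density of Angel1 was 1.88 to 2.12 times that of Cipc, and that of Lrrc74a 1.25 to 1.45 times, in the 6 libraries. The SD of the ratio of Angel1 to Cipc was 0.088 (n = 4). The dense stretch thus held levels of its own that kept their order at Angel1, Lrrc74a and Cipc in every library.

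The transcripts of Cipc begin at a pair of starts 302 bases apart, and subtraction isolated this first piece, which is 63.6% G or C. It held 12, 16 and 88 reads in the dDAVP libraries and 14, 13 and 8 in the vehicle libraries. Only dDAVP experiment 3 stood high. Its density over that of the rest of Cipc was 0.221 to 0.570 in the 5 other libraries and 1.84 in dDAVP experiment 3. At these counts, and with reads across the border lost to the subtraction, the piece gives no level of its own.

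Zdhhc22, on the minus strand, spans 5.30 kb at chr12:86983381-86988676. It stood at 15.7, 15.3 and 23.3 times the median gene in the dDAVP libraries and at 14.3, 14.7 and 10.1 times in the vehicle libraries. The treatments did not overlap, but the highest vehicle library lay within the counting interval of both lower dDAVP libraries. Its density over that of Cipc was 0.900 to 1.35, so the neighbours did not keep one order. Over genes of equal GC content it stood at 11.7 times in dDAVP experiment 3, the lowest of the 6 libraries, and at 13.0 to 16.7 times in the others, with 51.4% G or C. On that scale the treatments overlapped.

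**Figure D2:**
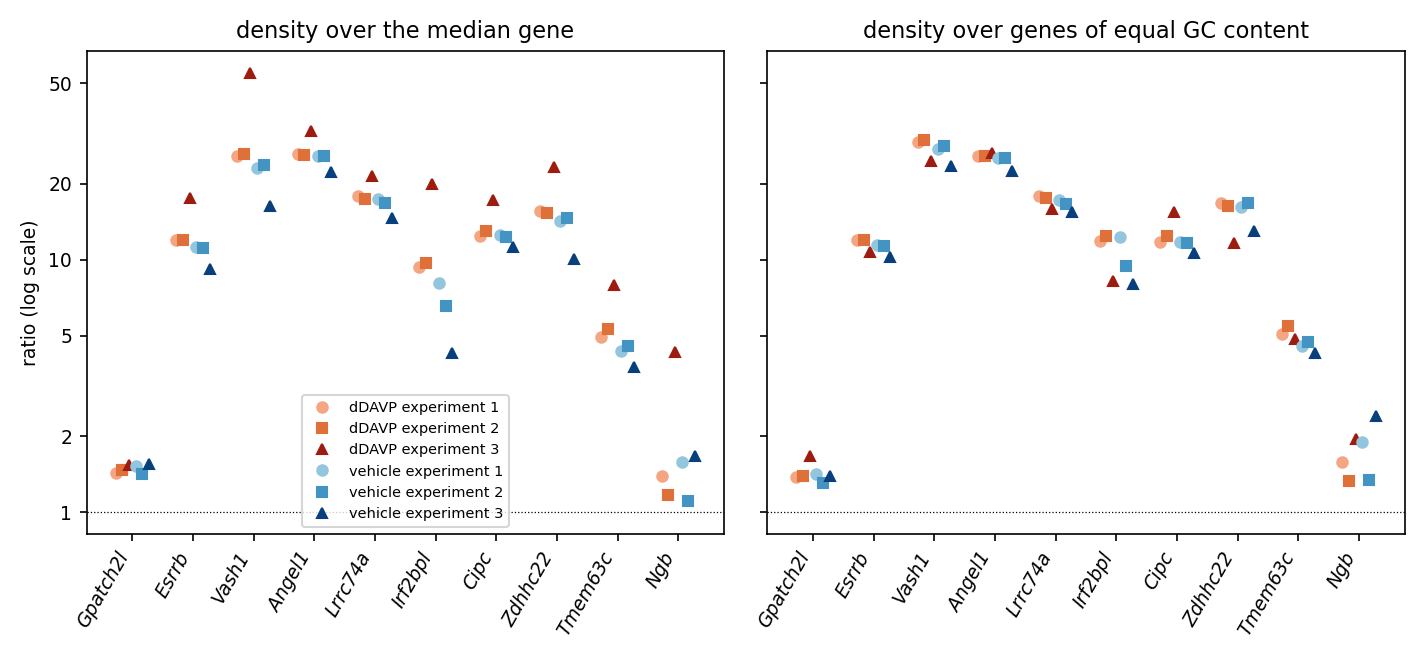
Density of the members and of Irf2bpl in each of the 6 libraries, in chromosomal order, over the median gene (left) and over genes of equal GC content (right), both on a log scale; each point is a library. On the right, dDAVP experiment 3 falls back among the other libraries at Vash1, from 55.0 to 24.5 times. At Cipc it stays the highest, at 15.4 times.

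Tmem63c, the last gene of the stretch, spans 63.5 kb at chr12:87026564-87090039, with 25 exons. It held 2475, 2531 and 4727 reads in the dDAVP libraries and 1782, 1766 and 2525 in the vehicle libraries. Its density was 4.94, 5.30 and 7.97 times the median gene in the dDAVP libraries and 4.37, 4.56 and 3.77 times in the vehicle libraries. It lay between the dense genes and the flank in each library, and the treatments did not overlap. Over genes of equal GC content it stood at 5.07, 5.46 and 4.84 times in the dDAVP libraries and at 4.55, 4.73 and 4.29 times in the vehicle libraries. On that scale too the treatments did not overlap. Zdhhc22 was 2.68 to 3.28 times as dense as Tmem63c.

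Reads were spread unevenly within Tmem63c. They covered 58.9%, 61.9% and 55.2% of its bases in the dDAVP libraries and 44.0%, 45.2% and 63.0% in the vehicle libraries. An even spread of as many reads would cover 85.8%, 86.4% and 97.6% in the dDAVP libraries and 75.4%, 75.1% and 86.3% in the vehicle libraries. In every library the reads left far more of the gene bare than an even spread would. Vash1, at higher density, was covered at 97.9% to 99.2%. Other dense genes were also left bare in part in dDAVP experiment 3. There Angel1, Lrrc74a, Cipc and Zdhhc22 were covered at 78.3%, 75.3%, 69.2% and 87.9%. An even spread would cover 99.97% of Cipc in that library. Uneven coverage there was thus not particular to Tmem63c.

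With each base of Tmem63c either at the level of Cipc or Zdhhc22 or at the median of 28 genes around the stretch, the reads would place 14.6 to 21.4 kb of its 63.5 kb at the dense level in the 5 libraries other than dDAVP experiment 3. The bases covered, a separate column made from the same reads, would place 14.6 to 25.1 kb there in the same libraries. With dDAVP experiment 3 the ranges widened to 14.6 to 26.0 kb and 14.6 to 42.3 kb. Without dDAVP experiment 3, both measures leave the greater part of Tmem63c at the level of the flanking genes. No position within an interval is given, so whether a border lies inside Tmem63c was not seen.

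**Figure D3:**
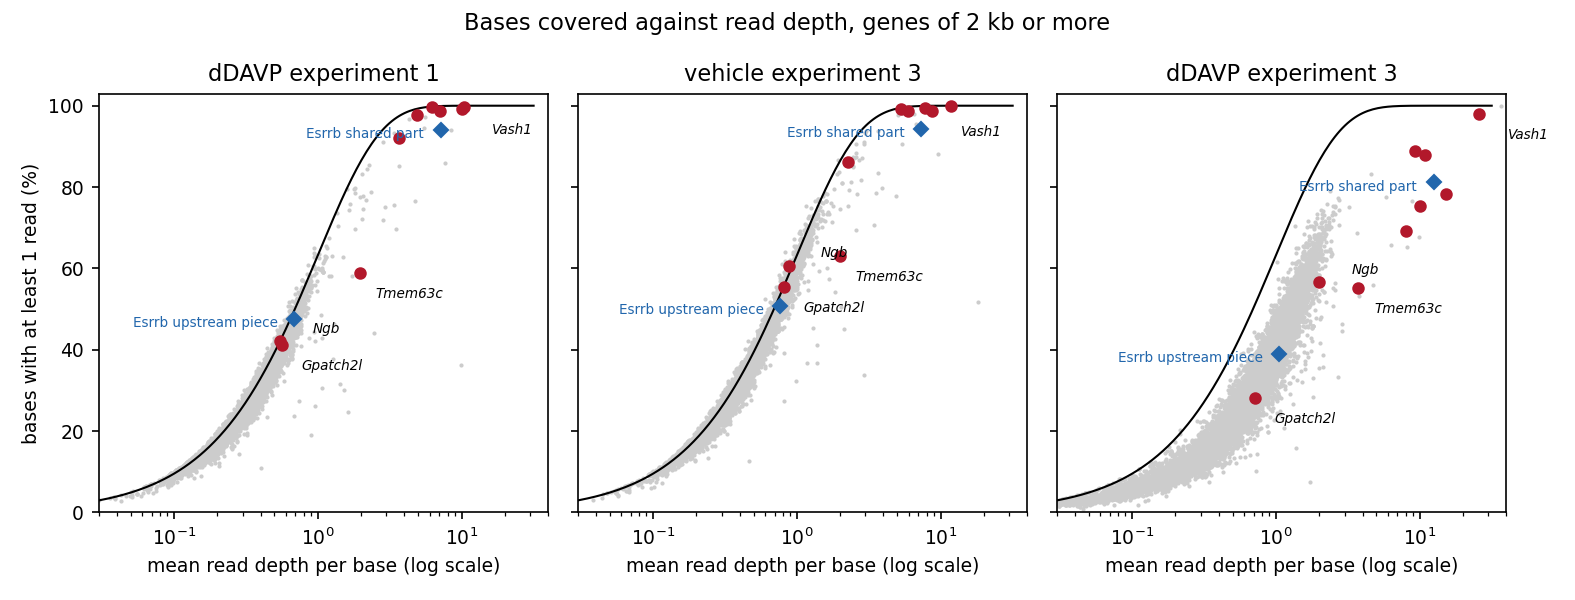
Percent of bases with at least 1 read against mean read depth per base (log scale) in 3 libraries; grey points are genes of 2 kb or more, red points the members, blue diamonds the pieces of Esrrb, and the line is an even spread. Tmem63c lies below the line, at 58.9% in dDAVP experiment 1 where an even spread gives 85.8%, while Gpatch2l and the upstream piece of Esrrb lie near it in that library and in vehicle experiment 3.

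Ngb, the distal flank, is on the minus strand and spans 5.01 kb at chr12:87097531-87102539, 7.49 kb beyond Tmem63c. It held 55, 44 and 201 reads in the dDAVP libraries and 51, 34 and 88 in the vehicle libraries. Its density was 1.39, 1.17 and 4.30 times the median gene in the dDAVP libraries and 1.58, 1.11 and 1.66 times in the vehicle libraries. dDAVP experiment 3 stood high and the treatments overlapped. Ngb is 53.4% G or C, and over genes of equal GC content it stood at 1.94 times in dDAVP experiment 3 and 1.33 to 2.39 times in the others. The density of Tmem63c over that of Ngb was 2.90 ± 1.01 (SD, n = 4), with a range of 1.86 to 4.54 over libraries.

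Counting error is wide at Ngb. The exact 95% Poisson interval was 0.770 to 1.55 times the median gene for the 34 reads of vehicle experiment 2 and 3.72 to 4.93 times for the 201 reads of dDAVP experiment 3. These intervals cover counting error only, since reads without molecular identifiers are not independent molecules.

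Beyond the flanks most levels were low. The 19 genes with at least 40 reads in every library from Ylpm1 to Gm805, before Gpatch2l, stood at 1.00 to 2.05 times the median gene in the 5 libraries other than dDAVP experiment 3. The nearest 3 on that side, Tgfb3, Ift43 and Gm805, had medians over the 6 libraries of 1.33, 1.40 and 1.81 times. After Ngb, the 9 such genes up to Snw1 stood at 1.05 to 1.95 times in those 5 libraries, and the nearest, Pomt2, Gstz1 and Tmed8, had medians of 1.47, 1.35 and 1.66 times. With dDAVP experiment 3 the ranges were 0.653 to 4.71 and 0.402 to 2.04 times. None of these 28 genes was dense. Farther on, Gm1995, the only gene after Snw1 and up to 88 Mb with at least 40 reads in every library, stood at 2.90 to 4.14 times in those 5 libraries and at 9.77 times in dDAVP experiment 3. Without that limit on reads, the 10 genes there stood at 0.787 to 4.14 times in those 5 libraries. Among them Gm2016, with 12 reads in dDAVP experiment 3, stood at 2.01 to 3.70 times in the 5 others.

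The inner start of Esrrb and the end of Tmem63c lie 668.4 kb apart, and 39.4% of that length was inside an interval. The rest was not measured, including 116.9 kb between Lrrc74a and Irf2bpl and 62.2 kb between Irf2bpl and Cipc. Whether the density was high there is not known from these files. The longest unmeasured gap, 157.1 kb, lay between Esrrb and Vash1, both dense. The outermost limits set by the flanks, the end of Gpatch2l and the start of Ngb, lie 806.2 kb apart.

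Family members of these genes elsewhere in the genome were also described. Of 30 listed relatives 30 were matched and 0 stood at 5 times the median gene or more in every library. The highest value of a relative in any library was 4.23 times. Over all genes the share at 5 times or more in every library was 0.0838%. A count of 0 among 30 is near that share, and nothing is read from it. The relatives had medians from 0.363 times for Zdhhc9, on the X chromosome, to 2.09 times for Zdhhc25. The estrogen-related receptors Esrra and Esrrg had medians of 1.21 and 1.24 times. Vash2 stood at 1.17 times, Angel2 at 1.03 and Gpatch2 at 1.02. Lrrc74b stood at 1.39 times, Tmem63a at 0.770 and Tmem63b at 0.887. Of the globins related to Ngb, cytoglobin (Cygb) stood at 0.899 times and myoglobin (Mb) at 1.28 times.

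By Euclidean distance of log2 density over the 6 libraries, among 14419 other genes with at least 40 reads in each, the profiles nearest to the median of the 7 genes were those of Smoc1, Sfi1, Syne2, Pisd-ps1 and Slc8a3. Their distances were 0.724, 1.00, 1.43, 1.80 and 1.83. Smoc1, Syne2 and Slc8a3 lie on chromosome 12, and Sfi1 and Pisd-ps1 on chromosome 11. Smoc1, at chr12:81026808-81186414, stood at 12.3 to 14.0 times the median gene in every library. All 5 are among the 20 dense genes, and the likeness is of level and says nothing of function.

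The 9 members held 0.387%, 0.389% and 0.709% of the reads over 1 interval per gene in the dDAVP libraries and 0.358%, 0.357% and 0.275% in the vehicle libraries. Every dDAVP library lay above every vehicle library, and dDAVP experiment 3 lay far above the rest. The members make up 0.0371% of the length of those intervals. Scaled to 1000000 reads, the members held 5486 ± 2272 reads with dDAVP and 3165 ± 581.7 with vehicle (SD, n = 2 each), a difference of 2321. The two-sided exact permutation p was 0.333, the smallest that n = 2 against n = 2 allows, so this design cannot pass 0.05. Without dDAVP experiment 3 the difference was 714.2, and without vehicle experiment 3 it was 1910, both with no test. Within chromosome 12, the 7 genes from Esrrb to Tmem63c held 5.10% to 5.53% of gene reads in the 4 libraries of experiments 1 and 2, 10.2% in dDAVP experiment 3 and 3.99% in vehicle experiment 3, for 0.787% of the gene length.

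Per interval, the treatments were compared over the whole table with edgeR's quasi-likelihood test. Of 30912 intervals tested 0 passed an adjusted p of 0.05, a background of 0% called, and 236 had an unadjusted p under 0.05. DESeq2 called 0 as well, with 1082 under an unadjusted p of 0.05. None of the 14 member intervals was called by either. The largest fitted difference among the members was that of Vash1, with a log2 ratio of dDAVP over vehicle of 1.04 ± 0.51 (SE), a 95% interval of −0.23 to 2.31 and an adjusted p of 0.619 from edgeR. The smallest was that of Gpatch2l, at 0.0037, with a 95% interval of −0.74 to 0.74 and an adjusted p of 0.994 from edgeR.

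The other members lay between these. Esrrb had a log2 ratio of 0.55 with a 95% interval of −0.72 to 1.82, and Ngb 0.89 ± 0.65 (SE). The ratios of Zdhhc22 and Tmem63c were 0.67 and 0.69. Cipc, Lrrc74a and Angel1, which are 45.7%, 47.3% and 46.7% G or C, had ratios of 0.36, 0.32 and 0.30. The 95% intervals of all 9 members included 0 in this fit. Irf2bpl, inside the stretch, had a ratio of 1.35 with an interval of 0.10 to 2.59 and an adjusted p of 0.619 from edgeR.

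The ratios were also fitted with an offset for each library's trend over GC content, and the cause of the changes was not tested. In that edgeR fit Vash1 had a log2 ratio of 0.09 with a 95% interval of −0.27 to 0.45, and Irf2bpl had 0.10. Zdhhc22 and Ngb turned to −0.047 and −0.20. Gpatch2l rose from 0.0037 to 0.15, and Cipc changed little, from 0.36 to 0.30. Without dDAVP experiment 3 the dDAVP arm is 1 sample, which is assumed to vary like the vehicle samples, so its ratios are given as values. They were 0.41 for Vash1, 0.36 for Zdhhc22, 0.34 for Tmem63c and 0.26 for Esrrb. Lrrc74a stood at 0.18, Angel1 at 0.15 and Cipc at 0.13, and the flanks Gpatch2l and Ngb at −0.030 and −0.20. Irf2bpl stood at 0.73. Each member between the flanks kept its sign, at a lower ratio than with all libraries. With the GC offset the members' ratios ran from −0.20 at Ngb to 0.30 at Cipc, and 0 of 14 intervals were called.

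**Figure D4:**
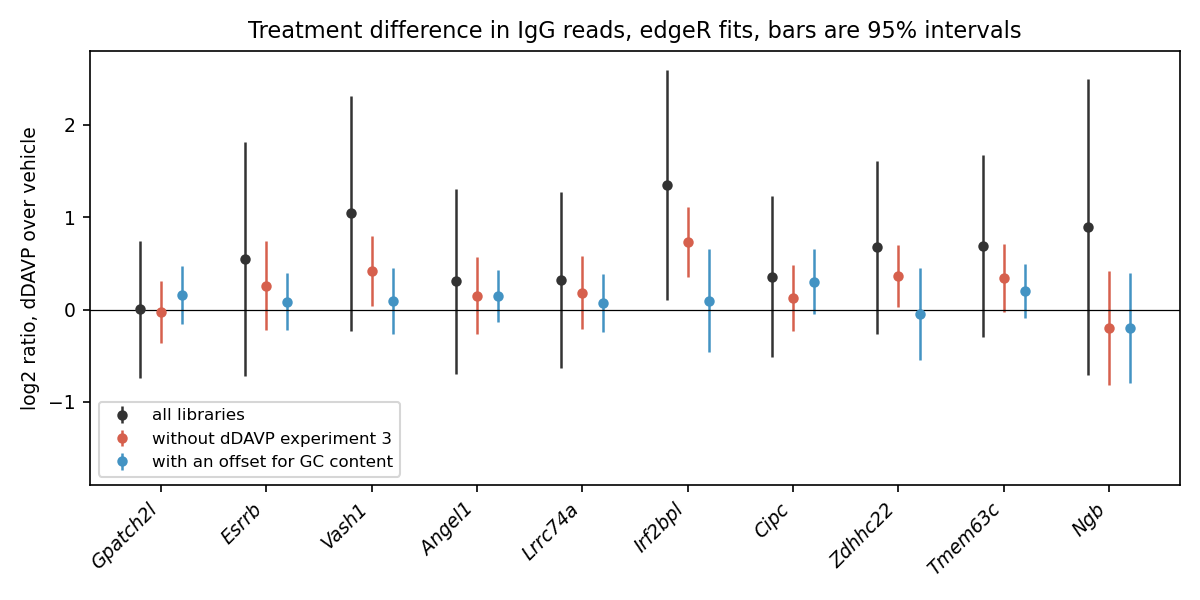
Fitted log2 ratio of IgG reads, dDAVP over vehicle, for the members and Irf2bpl; points are estimates and bars 95% intervals from edgeR fits with all libraries, without dDAVP experiment 3 and with an offset for GC content. Without that library the dDAVP arm is 1 sample, and its bars rest on the spread of the vehicle samples. The ratio of Vash1 moves from 1.04 to 0.41 and 0.09 across the 3 fits.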

How the data were processed

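The 6 IgG libraries of mpkCCD chromatin were sequenced as 50-bp reads and placed on mm10 by BWA, as the labels' protocols state. The submitters' processing notes add SAMtools and bedtools, without versions. The deposited count of an interval gives the reads that overlap a RefSeq transcript anywhere between its ends, per the file headers, with no normalization. The files also hold the deposited number of bases with at least 1 read and the fraction of each interval they make up, per the file headers. Whether duplicates were removed or reads filtered on mapping quality is not given in the sources used here. Columns of per-sample values left unused numbered 0.

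The members and lists were chosen with earlier results of these data known. The named genes were the 9 members, Irf2bpl, the 3 nearest genes on either side, the 5 nearest profiles and the listed relatives. Each gene was represented by its longest interval, and density was scaled by the reads over 1 interval per gene (6874276 to 12835455 per library). The trend over GC content was the median of log2 density over genes of at least 2000 bp in 50 classes of GC content, joined by lines. The even spread assumed reads of 50 bases placed at random. Libraries of 1 treatment with a chi-square over degrees of freedom under 1.1, across genes with at least 40 reads, were summed for tests and averaged for densities. The two-sided treatment test was edgeR's quasi-likelihood test (version 4.0.16, R 4.3.3) after TMM scaling and filterByExpr, adjusted by Benjamini-Hochberg over all 30912 intervals (threshold 0.05). DESeq2 1.42.0 was the other tool. All 14 member intervals passed the filter. Of the 14 member intervals, 14 were found in RefSeq on GRCm38.p6 and 6 had the same coordinates there, so the deposited coordinates are printed. Overlapping genes share reads, and no strand was used. Python 3.11.15 with numpy 2.4.6, scipy 1.17.1, pandas 2.3.3 and matplotlib 3.10.9 did the rest. The alternatives were other scalings, a GC correction, distinct reads, a block and leaving out each library.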

Additional observations from a re-analysis of the deposited data

How the results depend on the processing

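Mean ratios at the edges, mean densities and counts of calls kept their direction under the alternatives run, but single libraries did not at either edge. At the left edge, the ratio in dDAVP experiment 3 went from 1.47 to 0.893 with the GC correction. That in vehicle experiment 3 went from 0.938 to 1.16. By distinct reads the ratio of Tmem63c to Ngb was 0.963 in dDAVP experiment 3 and 1.06 in vehicle experiment 3, and by bases covered it was 0.976 and 1.04. The density of the 7 genes, 15.7 times the median gene, was 9.87 with distinct reads estimated from the bases covered, a measure that saturates at full coverage, and 10.9 over the other genes of chromosome 12. By distinct reads the ratio of Tmem63c to Ngb, 2.90, had a mean of 1.51, and that of the Esrrb pieces, 10.8, was 4.64; by bases covered it was 2.25. Leaving out 1 library at a time gave 13.7 to 17.2 for the density, 10.4 to 11.2 for the Esrrb pieces, 1.05 to 1.23 at the left edge, 2.73 to 3.25 at the right edge, 714.2 to 2327 for the treatment difference in the members' reads, scaled to 1000000, and 6 dense members throughout. With 6 separate libraries that difference was 1648 (two-sided exact permutation p = 0.100, the smallest possible). For the treatment, Gpatch2l reversed to −0.031 with DESeq2, −0.018 with RLE size factors and −0.0076 without a filter, and ranged from −0.030 to 0.043 without single libraries. With the GC offset Zdhhc22 reversed to −0.047 and Ngb to −0.20, and Ngb ranged from −0.20 to 1.03 without single libraries. The cause was not tested. With a block that set experiments 1 and 2 summed apart from experiment 3, 0 intervals were called. In that fit 210 had an unadjusted p under 0.05 in edgeR, against 236 without the block. With 6 separate libraries and a block by experiment number, 0 were called and 292 had an unadjusted p under 0.05 in edgeR. Deviations of same-numbered libraries from their treatment means gave r = −0.243, −0.261 and −0.443. dDAVP experiment 1 with vehicle experiment 2 gave −0.266, and dDAVP experiment 2 with vehicle experiment 1 gave −0.240. These values therefore cannot tell pairs apart in experiments 1 and 2. The numbers were not taken as pairs in the main test. Calls were 0 in each fit, with 1201 intervals under an unadjusted p of 0.05 with 6 separate libraries, 343 with the GC offset, 672 without dDAVP experiment 3 and 1 without vehicle experiment 3. Depth limits Ngb and the first piece of Cipc, and n = 2 per treatment limits every treatment ratio.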
